A study of Homo sapiens with 24 samples.

Results

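The genes described here are 10 members of the Notch pathway: the receptors NOTCH1, NOTCH2 and NOTCH3, the ligands JAG1 and DLL4, and the target genes HEY1, HEY2, HEYL, HES1 and HES4. They were chosen by symbol, each matched 1 row of the 62757 in the deposited count table, and all 10 had enough counts to be tested. Bulk RNA was sequenced from 24 cultures of the human embryonic stem cell line HES3, which carried a GFP reporter at NKX2-5 and an mCherry reporter at NR2F2 in every group. The cells were differentiated toward heart muscle as embryoid bodies, free-floating cell aggregates, with a Wnt-modulating protocol for at most 14 days. Libraries labelled AM were read as the atrial condition, which received retinoic acid at day 4, and libraries labelled VM as the ventricular condition without it, since the labels do not spell out these codes. Within each condition, 4 groups of 3 replicates were labelled for CRISPR-Cas9 targeting of LHX2, ZNF503, ZNF711 or TRAC, a T cell receptor gene that served as the control, which gave 8 groups in all. The labels do not say whether a knockout is 1 clone or a pool, or whether replicates are separate differentiations, so p-values measure only the spread between these libraries, which may be technical.

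Notch receptors are surface proteins that are cut when a ligand on a neighbouring cell binds them. The freed intracellular part enters the nucleus, joins the DNA-binding protein RBPJ and a Mastermind co-activator, and switches on genes of the HES and HEY families, which encode transcriptional repressors. In the developing heart the pathway is known for its roles in the endocardium, the valves, the coronary vessels and the patterning of chamber muscle. HEY1 and HEY2 are known as markers of atrial and ventricular muscle, respectively.

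Libraries held 2899786 to 7438010 counts, with a median of 5113566.5. The fewest counts of a member in any library were 7 for HEY2, 20 for DLL4 and 24 for HEYL, and no other member fell under 46. The labelled conditions were checked with marker genes: NR2F2, an atrial regulator, had 320 to 514 CPM (counts scaled to a common library total) in AM and 18.9 to 85.9 CPM in VM libraries, and IRX4, a ventricular regulator, had 0.26 to 2.66 and 22.8 to 178 CPM. MYL2, a ventricular myosin light chain, reached only 9.21 CPM in VM. Of 8 listed atrial markers, MYL7, NPPA and MYH6 had higher medians in VM, with ranges that overlapped between the conditions. Their medians were 587, 4.52 and 7624 CPM in AM and 1169, 11.3 and 8165 CPM in VM. The other 5, NR2F2 among them, were higher in AM in the average over targets. In that average 1 of the 8 was called lower in AM (edgeR adjusted p under 0.05). In ZNF711 libraries alone, 7 of the 8 were higher in AM. Among the targeted genes, ZNF503 was higher, not lower, in the libraries with its label. It had 255 to 367 CPM in AM against 103 to 123 in AM TRAC, and 19.1 to 45.3 CPM in VM against 8.82 to 16.2 in VM TRAC. Every such library was above all others of its condition, although neither difference from TRAC was called (edgeR adjusted p = 0.295 and 1.0). LHX2 was at 0.425 to 2.80 CPM in the libraries labelled LHX2 and 0.542 to 4.02 CPM in TRAC libraries. ZNF711 was at 31.2 to 55.8 against 47.4 to 60.3 CPM in AM and 25.9 to 33.9 against 34.6 to 48.0 CPM in VM. None of these differences was called, so transcript levels alone do not show whether a target was disrupted. In VM, replicate 3 of every group and all 3 libraries labelled ZNF711 stood apart: their 9 hepatic endoderm markers, such as the fetal liver proteins AFP and ALB, summed to 11167 to 31512 CPM against 1897 to 4987 CPM in the other 6 VM libraries, and their 12 cardiomyocyte markers to 11873 to 21144 CPM against 37317 to 42676 CPM. Most of the cardiomyocyte sum was TTN and MYH6, at 5571 to 27070 and 3295 to 14082 CPM over all VM libraries. In AM libraries the hepatic endoderm sum was 270 to 2486 CPM and the cardiomyocyte sum 15242 to 30342 CPM.

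RBPJ is known to bind DNA at sites with the core TGGGAA, so the promoters of the members were searched for it on both strands, from 250 bases before to 50 after the gene start in RefSeq (GRCh38.p14). Of 35116 promoters of that length, 24% held the core at least once and 3.8% at least 2 times. The longer form GTGGGAA, which contains the core, stood in 6.25%. Of the 9 members in the table, HES1, HEYL and HEY2 held 2 cores and HES4 held 1, and each of these 4 also held the longer form. NOTCH1, NOTCH2, NOTCH3, JAG1 and DLL4 held none of these letters in the window. HEY1 was not in the table. The stretches with the matches are shown because these 4 target genes share the letters, while 2 of them, HEY2 and HES4, were lower in AM on average and HES1 and HEYL were not called. They are written in the direction of the gene, with the core in capitals, or its reverse complement TTCCCA where the match lies on the other strand. The RefSeq starts used here are not those of the gene spans given below, which come from GENCODE. The HEY2 and HEYL stretches lie inside those spans, which start at 125747664 (plus strand) and 39639945 (minus strand). The HES4 stretch crosses the start of its span at 1000172, and the HES1 stretch lies before its own at 194136145. A match is a description of the letters and not evidence of binding.
HES1, chr3:194136044-194136103, plus strand: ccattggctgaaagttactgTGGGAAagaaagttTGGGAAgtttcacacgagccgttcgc
HES4, chr1:1000148-1000193, minus strand: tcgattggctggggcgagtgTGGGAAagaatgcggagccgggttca
HEYL, chr1:39639717-39639841, minus strand: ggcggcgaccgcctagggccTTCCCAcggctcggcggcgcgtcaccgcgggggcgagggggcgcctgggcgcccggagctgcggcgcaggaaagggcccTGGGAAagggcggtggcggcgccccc
HEY2, chr6:125749399-125749634, plus strand: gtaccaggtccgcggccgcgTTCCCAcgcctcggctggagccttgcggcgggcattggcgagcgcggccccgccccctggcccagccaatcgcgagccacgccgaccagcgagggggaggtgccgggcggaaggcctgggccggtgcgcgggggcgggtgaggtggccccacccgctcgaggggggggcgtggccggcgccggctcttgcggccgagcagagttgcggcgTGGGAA

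The question of the first comparison was how the pathway differs between the atrial and the ventricular condition. JAG1 and HEY1 were higher in AM and HEY2 was lower in AM for each of the 4 targets, and no AM library overlapped a VM library for these 3 genes. How many of all genes separate the conditions without overlap was not counted, here or for other genes below. The same holds for the counts of same-numbered pairs given below. NOTCH3 was higher in AM for 3 of the 4 targets by a smaller step. Among the 10 members, 5 were called in TRAC libraries (edgeR quasi-likelihood test, adjusted p under 0.05), with 3 higher and 2 lower in AM, against 11.3% of all 17724 genes tested, 6.18% higher and 5.12% lower. The count was 4 of 10 in libraries labelled LHX2, with 8.56% of all genes called, 4 in ZNF503, with 8.86%, and 4 in ZNF711, with 13.2%. With a replicate block, a term for the replicate number, the counts were 6, 5, 5 and 6 in the same order, with 19.4%, 15.7%, 14.9% and 23.4% of all genes called. Averaged over the 4 targets, 7 members were called against 34.5% of all genes: 3 members were higher and 4 lower in AM, while 16.8% of all genes were higher and 17.6% lower. The median log2 fold change of the members in that average was -0.13, beside -0.01 for all genes.

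JAG1, the ligand known from Alagille syndrome and cardiac outflow defects, lies on chromosome 20 (10637684 to 10673999, minus strand, GRCh38). It had 718, 704 and 667 CPM in AM TRAC replicates 1, 2 and 3 and 241, 208 and 288 CPM in VM TRAC. The 12 AM libraries had a lowest value of 496, a median of 657 and a highest value of 749 CPM, and the 12 VM libraries 208, 288 and 321 CPM. Every AM library was above every VM library. The log2 fold change of AM over VM was 1.50 (SE 0.16, adjusted p = 3.38e-07, edgeR) in TRAC, 1.21 in LHX2, 1.29 in ZNF503 and 0.91 in ZNF711, and 1.23 (SE 0.08) averaged. The call held under all 16 alternatives for each target, where the highest adjusted p was 0.0206 (edgeR), in ZNF711.

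DLL4, a ligand known from arterial endothelium and early endocardium, lies on chromosome 15 (40929333 to 40939073, plus strand). It was scarce, with 3.98, 7.96 and 4.37 CPM in AM TRAC and 12.5, 9.69 and 13.7 CPM in VM TRAC. The AM TRAC libraries were all below the VM TRAC libraries, but over all targets the ranges overlapped, 3.98 to 11.7 CPM in AM and 5.08 to 14.6 CPM in VM. In TRAC the log2 fold change was -1.13 (SE 0.39, edgeR adjusted p = 0.0637, or 0.0364 with the replicate block). Without AM TRAC replicate 2 it was -1.52 (adjusted p = 0.0430, edgeR). Averaged over targets it was -0.73 (SE 0.20, adjusted p = 0.00525, edgeR), with DLL4 lower in AM in 11 of 12 pairs of libraries with the same target and number. Over replicates 1 and 2 of TRAC, LHX2 and ZNF503 only, this average was -0.39 (adjusted p = 0.390, edgeR) and no longer called. That choice, made after the data were seen, leaves out the VM libraries that stood apart and also the AM libraries with the same labels and numbers. The call was also lost without replicate 1 (-0.59) and without replicate 3 (-0.57). Of the endothelial and endocardial markers, 8 of 14 were called higher in AM in the average and 1 lower, against 16.8% and 17.6% of all genes. Those higher included CDH5 (0.84), ERG (1.23) and SOX17 (1.58 on the log2 scale), and the lower 1 was NFATC1 (-0.89). The 14 markers summed to 697 to 1118 CPM in AM and 521 to 763 CPM in VM. In bulk libraries, fewer cells of a type and less RNA per cell cannot be told apart.

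**Figure D1:**
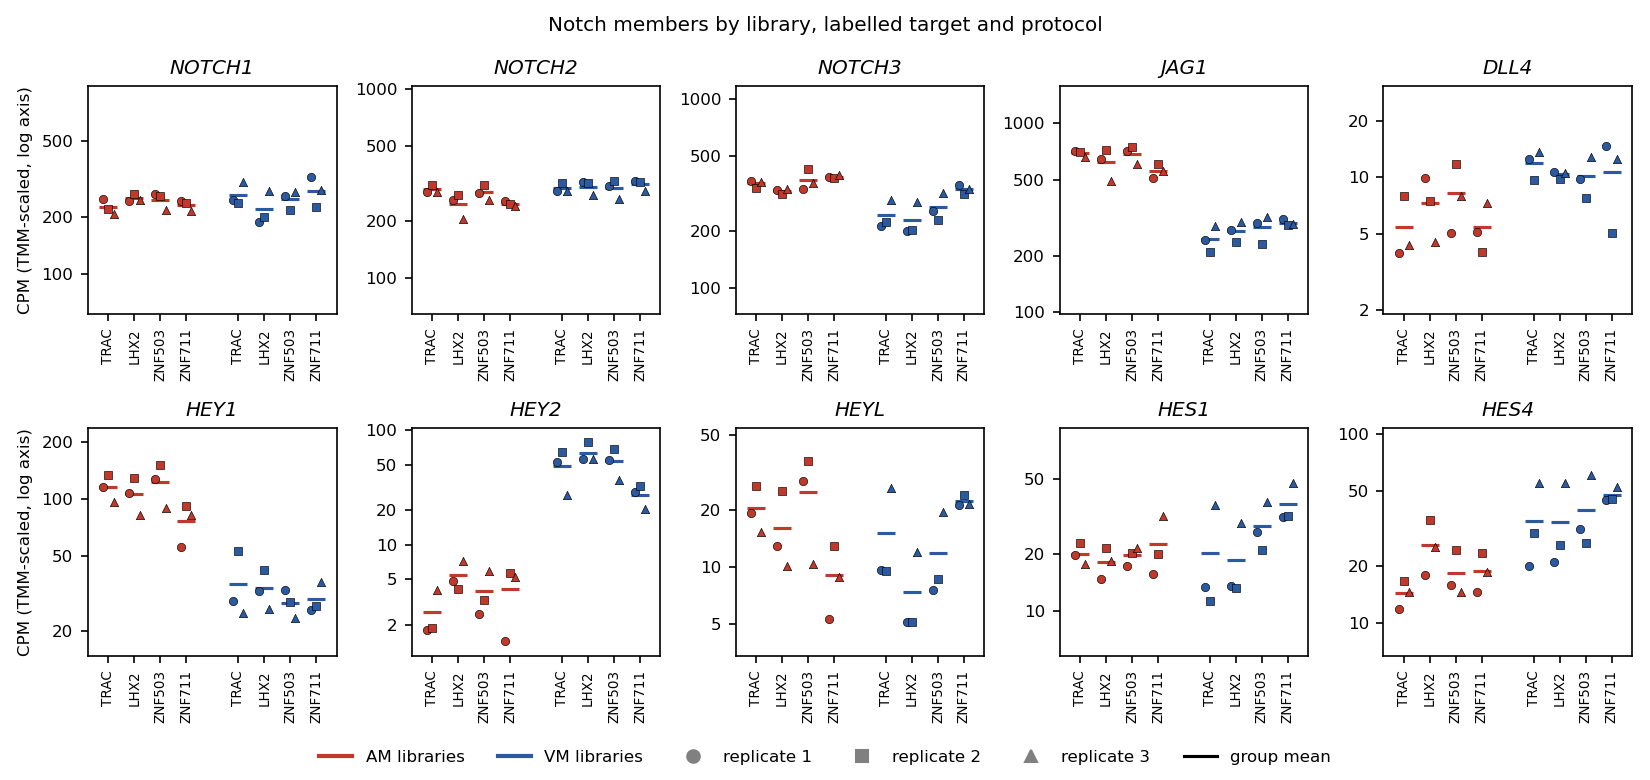
CPM on a log axis (TMM-scaled) of each member in the 24 libraries, by target within AM (red) and VM (blue), with 1 marker per replicate and a bar at the group mean. JAG1, HEY1 and HEY2 separate AM from VM without overlap, and within VM the replicate 3 triangles are highest in HES1 and HES4 and lowest in HEY2 and NOTCH2 in all 4 groups.

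Of the receptors, only NOTCH3 was called higher in AM. NOTCH3, known from vascular smooth muscle and pericytes, lies on chromosome 19 (15159038 to 15200981, minus strand) and had 371, 340 and 368 CPM in AM TRAC and 214, 225 and 292 CPM in VM TRAC. Its log2 fold change was 0.56 (SE 0.15, adjusted p = 0.0149, edgeR) in TRAC, 0.51 (adjusted p = 0.0332) in LHX2, 0.48 (adjusted p = 0.0472) in ZNF503 and 0.22 (adjusted p = 0.368) in ZNF711. The 3 AM libraries were above the 3 VM libraries for each target. The single-target calls were close to the threshold: they were lost under 6 of 16 alternatives in TRAC, 9 in LHX2 and 11 in ZNF503. The averaged difference of 0.44 (SE 0.08, adjusted p = 4.84e-05, edgeR) was called under all 34 alternatives, and NOTCH3 was higher in AM in 12 of 12 same-numbered pairs.

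NOTCH1, the main endothelial and endocardial receptor, lies on chromosome 9 (136494433 to 136545786, minus strand) and had 247, 221 and 207 CPM in AM TRAC and 245, 236 and 305 CPM in VM TRAC. The averaged log2 difference was -0.07 (95% interval -0.23 to 0.08, edgeR adjusted p = 0.499), and NOTCH1 was higher in AM in 6 of 12 pairs. NOTCH2 lies on chromosome 1 (119911553 to 120069626, minus strand) and had 285, 312 and 287 CPM in AM TRAC and 290, 319 and 290 CPM in VM TRAC. It was lower in AM in 12 of 12 pairs, by a median log2 difference of -0.16, and the averaged fitted difference was -0.19 (SE 0.06, adjusted p = 0.0236, edgeR). That call was lost under 16 of 34 alternatives, including scaling to library size alone (-0.11, adjusted p = 0.222, edgeR). With the replicate block NOTCH2 was also called lower in LHX2 (-0.31, adjusted p = 0.0185, edgeR) and ZNF711 (-0.34, adjusted p = 0.00586), against -0.30 (adjusted p = 0.164) and -0.34 (adjusted p = 0.0736) without it. NOTCH2 has near-identical partial copies, the NOTCH2NL genes, which held 83 to 864 counts each over all libraries, so how reads were divided between them is uncertain.

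**Figure D2:**
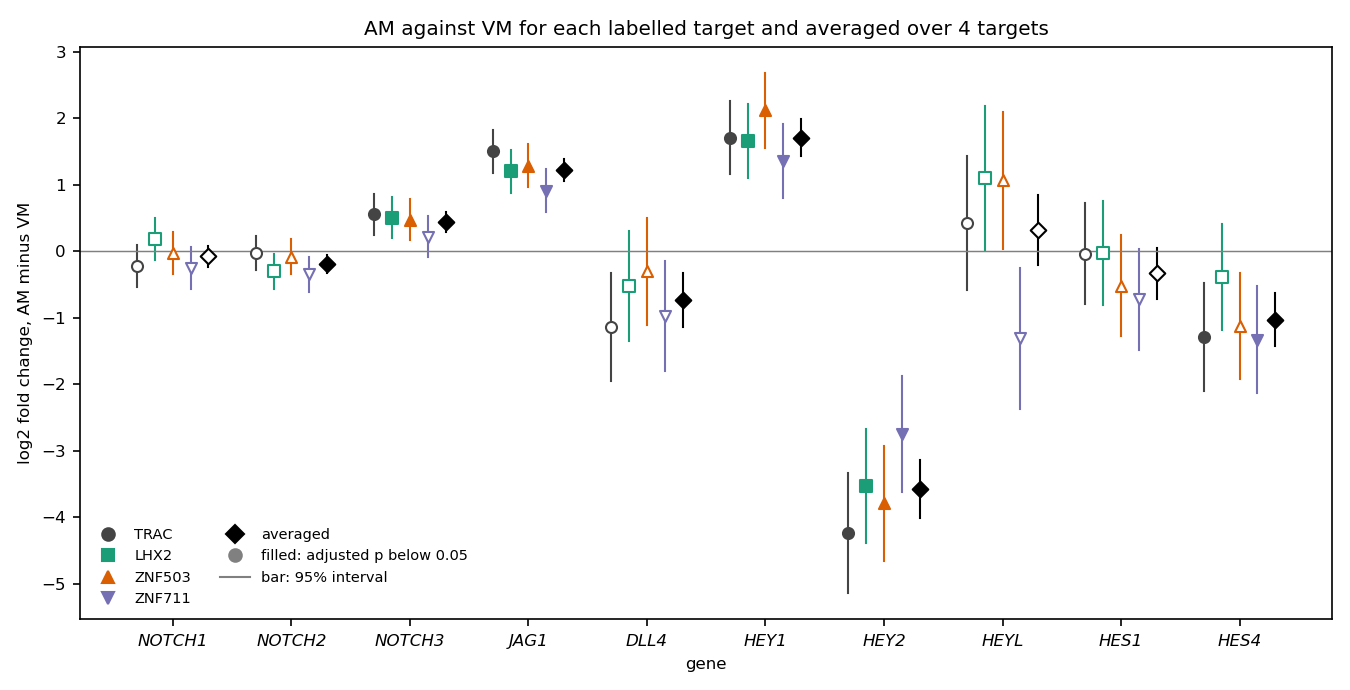
Log2 fold change of AM over VM for each member by labelled target and averaged over targets, with 95% intervals, where filled markers have an adjusted p under 0.05 (edgeR). JAG1 and HEY1 lie above 0 and HEY2 below 0 for every target, and HEYL lies at -1.30 in ZNF711 and at 0.43 to 1.11 in the others.

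The target genes did not move together. HEY1 lies on chromosome 8 (79764010 to 79767863, minus strand) and had 116, 134 and 96.4 CPM in AM TRAC and 28.7, 52.8 and 25.03 CPM in VM TRAC. The lowest, median and highest of 12 libraries were 55.4, 102 and 150 CPM in AM and 23.4, 28.6 and 52.8 CPM in VM. The highest VM library, TRAC replicate 2, was just below the lowest AM library, ZNF711 replicate 1. The log2 fold change of AM over VM was 1.71 (SE 0.27, adjusted p = 0.000105, edgeR) in TRAC, 1.66 in LHX2, 2.12 in ZNF503 and 1.36 in ZNF711.

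HEY2, the family member known from compact ventricular muscle, lies on chromosome 6 (125747664 to 125761269, plus strand) and showed the largest difference of the 10 members. It had 1.81, 1.87 and 4.01 CPM in AM TRAC, from 10 to 22 counts a library, and 53.1, 64.8 and 27.4 CPM in VM TRAC. Across all targets AM libraries held 1.43 to 7.23 CPM and VM libraries 20.5 to 78.6 CPM. The log2 fold change was -4.23 (SE 0.44, adjusted p = 4.75e-07, edgeR) in TRAC, -3.53 in LHX2, -3.79 in ZNF503 and -2.75 in ZNF711, and the averaged value ranked as the 162nd lowest of the 17724 genes tested. The calls of HEY1 and HEY2 held under all 16 alternatives for each target, with a highest adjusted p of 0.0479 (edgeR) for HEY1 and 0.0259 for HEY2, both in ZNF711. An antisense gene overlaps HEY2, AL365259.1, which held 117 counts beside 3075 for HEY2 over all libraries; the strand setting of the counting is not given in the sources used here.

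Set per kilobase of exon, which allows levels of different genes to be compared, HEY1 exceeded HEY2 in all 12 AM libraries, at 9.71 to 60.9 times the HEY2 level with a median of 23.4. In the VM libraries the ratio was 0.350 to 1.50 with a median of 0.519, and 1 library, ZNF711 replicate 3, was above 1. Ordered by median CPM per kilobase, AM libraries ran from JAG1 (70.7) through NOTCH3 (38.8), HEY1 (31.6), NOTCH1 (23.4), NOTCH2 (15.96), HES4 (15.5), HES1 (9.66), HEYL (3.85) and HEY2 (1.49) to DLL4 (1.30). VM libraries ran from HES4 (34.2) through JAG1 (31.0), NOTCH3 (28.8), NOTCH1 (24.2), HEY2 (19.8), NOTCH2 (18.6), HES1 (13.4), HEY1 (8.84) and HEYL (2.96) to DLL4 (2.24). Most neighbours in these orders overlapped in their ranges: the exceptions were JAG1 and NOTCH3, and NOTCH1 and NOTCH2, in AM, and HEY1 and HEYL in VM.

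HEYL, the family member known from vascular smooth muscle, lies on chromosome 1 (39624153 to 39639945, minus strand) and had 19.3, 26.8 and 15.3 CPM in AM TRAC and 9.64, 9.49 and 26.1 CPM in VM TRAC. Replicates 1 and 2 were higher in AM and replicate 3 was higher in VM. The same split appeared in LHX2 libraries, with 12.9, 25.1 and 10.1 CPM in AM and 5.08, 5.10 and 12.01 CPM in VM, and in ZNF503 libraries, with 28.3, 36.2 and 10.4 CPM in AM and 7.51, 8.58 and 19.6 CPM in VM. In ZNF711 libraries HEYL was lower in all 3 AM libraries, at 5.32, 12.9 and 8.85 CPM against 21.3, 24.1 and 21.5 CPM in VM. With all libraries and the filter on low counts, edgeR called HEYL in no comparison of AM with VM, and the averaged log2 difference was 0.33 (95% interval -0.20 to 0.85, edgeR adjusted p = 0.350). The ZNF711 difference of -1.30 (edgeR adjusted p = 0.0976) was called by DESeq2 (-1.32, adjusted p = 0.0460), by edgeR with only the groups compared (adjusted p = 0.00607) and with no filter (adjusted p = 0.00107). With no filter edgeR also called HEYL in LHX2 (1.09, adjusted p = 0.0163) and ZNF503 (1.09, adjusted p = 0.00986). Without replicate 3 the difference was called higher in AM in TRAC (1.28, adjusted p = 0.0342, edgeR), LHX2 (1.91) and ZNF503 (2.003) and lower in AM in ZNF711 (-1.33, adjusted p = 0.0275). In the average over replicates 1 and 2 of TRAC, LHX2 and ZNF503, HEYL was higher in AM by 1.73 (adjusted p = 6.02e-06, edgeR). This average was chosen after the data were seen. It leaves out the VM libraries where HEYL was highest and AM libraries at 5.32 to 15.3 CPM, so its size and p-value partly follow from the choice.

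HES4 and HES1, targets of Notch in many cell types, had levels in VM that depended on the replicate. HES4 lies on chromosome 1 (998962 to 1000172, minus strand) and had 11.9, 16.7 and 14.6 CPM in AM TRAC and 20.1, 29.9 and 55.0 CPM in VM TRAC. It was lower in AM by -1.29 (SE 0.39, adjusted p = 0.0340, edgeR) in TRAC, by -1.33 (adjusted p = 0.0254) in ZNF711 and by -1.03 (SE 0.19, adjusted p = 0.000217) in the average. The values in ZNF503 (-1.11, adjusted p = 0.0787, or 0.0253 with the replicate block) and LHX2 (-0.38, adjusted p = 0.642) did not pass. The TRAC call held under 8 of 16 alternatives. It was lost without AM TRAC replicate 1 (-1.17), 2 (-1.41) or 3 (-1.29), and without VM TRAC replicate 3 (-0.79, adjusted p = 0.239, edgeR). It was also lost without any 1 replicate number (-0.80 to -1.50) and with only the groups compared (-1.29, adjusted p = 0.0570, edgeR). The average over replicates 1 and 2 of TRAC, LHX2 and ZNF503, in AM and VM alike, was -0.38 (adjusted p = 0.186, edgeR). The average without replicate 3 was -0.60 (adjusted p = 0.0105, edgeR). In ZNF711 the call was lost without AM replicate 1 (-1.17), AM replicate 3 (-1.32), VM replicate 2 (-1.35) or VM replicate 3 (-1.24), and without replicate number 1 (-1.21) or 2 (-1.54).

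HES1 lies on chromosome 3 (194136145 to 194138732, plus strand) and had 19.7, 22.9 and 17.7 CPM in AM TRAC and 13.3, 11.3 and 36.5 CPM in VM TRAC. The first 2 VM TRAC libraries were below every AM TRAC library and the third was above them. The averaged log2 difference was -0.33 (95% interval -0.71 to 0.06, edgeR adjusted p = 0.189). Over replicates 1 and 2 of TRAC, LHX2 and ZNF503 only, in AM and VM alike, it was 0.31 (adjusted p = 0.184, edgeR). With the replicate block HES1 was called lower in AM in ZNF711 (-0.74, adjusted p = 0.0373, edgeR), where the value without the block was -0.72 (adjusted p = 0.212).

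**Figure D3:**
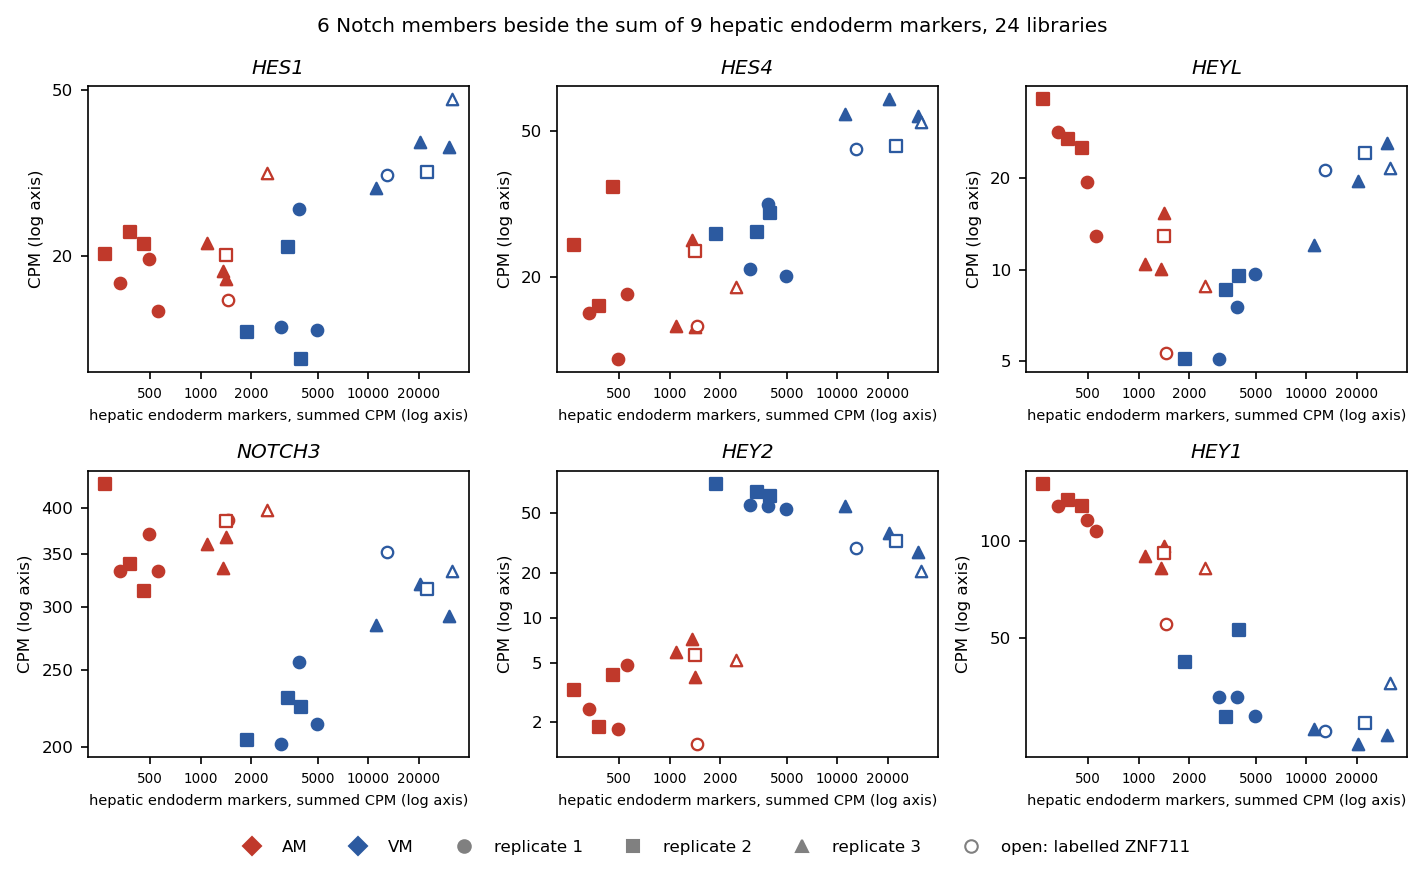
CPM of 6 members (log axes) against the summed CPM of 9 hepatic endoderm markers in AM (red) and VM (blue) libraries, with replicates by marker shape and ZNF711 open. The 6 VM libraries with a marker sum of 11167 CPM or more have higher HES1, HES4, HEYL and NOTCH3 than the other 6, without overlap. How many of all genes separate these libraries in the same way was not counted.

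The VM libraries with high hepatic endoderm markers were described further. HES4 was at 44.8 to 61.2 CPM in these 6 libraries (VM replicate 3 and VM ZNF711) and at 20.1 to 31.7 CPM in the other 6 VM libraries. HES1 was at 29.2 to 47.6 against 11.3 to 26.0 CPM, and HEYL at 12.01 to 26.1 against 5.08 to 9.64 CPM. These values do not overlap between the sets, nor do those of NOTCH3, at 285 to 352 against 202 to 256 CPM. The share of all genes that separate these sets without overlap was not counted. Whether the separation is particular to these members is therefore not known. HEY2 was at 20.5 to 56.0 against 53.1 to 78.6 CPM, with an overlap of the ranges at LHX2 replicate 3. In the same 6 libraries the fibroblast markers summed to 3285 to 4919 CPM against 1709 to 2468 CPM. Most of that sum was the collagens COL1A1, COL1A2 and COL3A1, at 821 to 2381, 410 to 1134 and 349 to 1293 CPM over all VM libraries. The epicardial markers summed to 92.7 to 140 against 64.8 to 93.1 CPM, and 4 pluripotency markers to 214 to 364 against 91.3 to 128 CPM. Most of the pluripotency sum was LIN28A, at 64.4 to 329 CPM over all VM libraries. DPPA4, POU5F1 and NANOG reached at most 31.7, 10.2 and 0.80 CPM there. The part of all these markers in the levels of the members was not tested. Endothelial and endocardial markers were at 606 to 722 against 521 to 763 CPM in the same sets, and arterial markers at 440 to 512 against 442 to 603 CPM. Mural and smooth muscle markers were at 720 to 1067 against 649 to 887 CPM, and neural markers at 525 to 689 against 449 to 720 CPM. Most of the arterial sum was UNC5B, at 302 to 499 CPM over all VM libraries, and most of the neural sum was NES, at 436 to 708 CPM.

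Whether each knockout label changed the members was asked against TRAC within AM and within VM, where the 3 labels share the same TRAC libraries. No member was called by edgeR in any of the 6 comparisons, or in the 3 interactions that ask whether the difference from TRAC is unequal in AM and VM. DESeq2 also called 0 of the 10 in each. The share of all genes called by edgeR was 0% in AM LHX2, AM ZNF503, AM ZNF711, VM LHX2 and VM ZNF503, 0.0169% in VM ZNF711, 0% in the LHX2 and ZNF503 interactions and 0.00564% in the ZNF711 interaction. At an unadjusted p under 0.05, the number of members was 2 in AM LHX2, 2 in AM ZNF711, 3 in VM ZNF711, 3 in the ZNF711 interaction and 0 in the other 5. The share of all genes at that threshold was 7.74%, 3.49% and 9.4% in those 3 comparisons and 6.4% in that interaction. In the other 5 it was 1.74% in AM ZNF503, 2.61% in VM LHX2, 1.55% in VM ZNF503, and 3.72% and 1.95% in the LHX2 and ZNF503 interactions. In the 6 comparisons with TRAC the 95% intervals of JAG1, NOTCH1, NOTCH2 and NOTCH3 stayed within 1 log2 unit of 0, while those of DLL4, HEY1, HEY2, HEYL, HES1 and HES4 reached beyond 1 log2 unit in at least 1 comparison.

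In AM libraries labelled LHX2, HEY2 was at 4.82, 4.14 and 7.23 CPM, all above the AM TRAC libraries, with a log2 difference of 1.11 (95% interval 0.11 to 2.11, edgeR adjusted p = 0.604). HES4 there was at 18.0, 35.2 and 25.3 CPM, also above AM TRAC throughout, with a difference of 0.86 (adjusted p = 0.629). The libraries labelled ZNF503 had no member at an unadjusted p under 0.05 in either condition, and the log2 differences of the 10 members were between -0.05 and 0.60 in AM and between -0.36 and 0.45 in VM.

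For the libraries labelled ZNF711, none of the following differences was called by edgeR with all libraries, the filter on low counts and no block. In AM, HEY1 was at 55.4, 91.6 and 82.2 CPM, all below AM TRAC, with a log2 difference of -0.60 (95% interval -1.13 to -0.07, edgeR adjusted p = 1.0). AM HEYL was below AM TRAC in all 3 libraries too, with a difference of -1.18 (95% interval -2.24 to -0.13, edgeR adjusted p = 1.0), which was called with no filter (-1.21, adjusted p = 0.0424). In VM, NOTCH3 was at 352, 317 and 334 CPM, all above VM TRAC, with a difference of 0.46 (SE 0.15, edgeR adjusted p = 0.296). With the replicate block NOTCH3 was called there (0.47, adjusted p = 0.0278, edgeR), when 2.27% of all genes were called. VM HEY2 was at 29.2, 32.4 and 20.5 CPM, with a difference of -0.82 (95% interval -1.55 to -0.09, edgeR adjusted p = 0.467), and VM HES1 at 31.4, 31.8 and 47.6 CPM, with a difference of 0.84 (adjusted p = 0.471). VM TRAC replicate 3 lay among the ZNF711 values for HES1 and HEY2. Without that 1 library HES1 was called at 1.56 (adjusted p = 0.0153, edgeR) and NOTCH3 at 0.59 (adjusted p = 0.0385). The hepatic endoderm sum in VM ZNF711 was 12877, 22601 and 31512 CPM, against 4987, 3973 and 30337 CPM in VM TRAC, and its part in these differences was not tested.

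**Figure D4:**
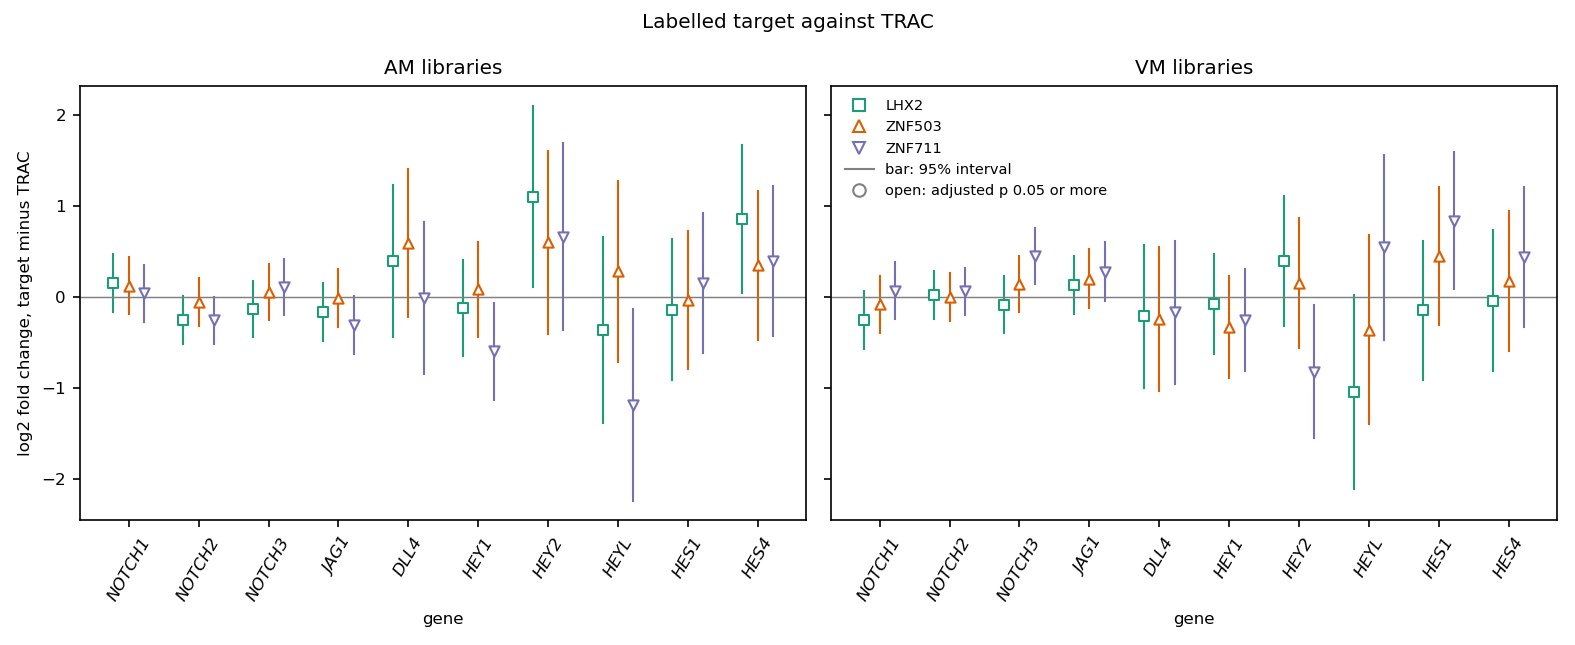
Log2 fold change of each labelled target over TRAC with 95% intervals, in AM (left) and VM (right). All markers are open since no adjusted p is under 0.05 (edgeR), and the widest intervals belong to HEYL, HEY2, DLL4, HES1 and HES4.

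The other genes of the pathway were counted from a list of 49, of which 47 were tested. In TRAC libraries 4 were higher in AM and 2 lower, or 8 and 2 with the replicate block. The counts were 4 and 2 in LHX2 (8 and 3 with the block), 3 and 1 in ZNF503 (9 and 2) and 5 and 3 in ZNF711 (6 and 6). In the order TRAC, LHX2, ZNF503 and ZNF711, 11.3%, 8.56%, 8.86% and 13.2% of all genes were called in either direction. With the block these shares were 19.4%, 15.7%, 14.9% and 23.4%. In the average over targets 11 were higher and 7 lower, near the shares of all genes called there (16.8% higher and 17.6% lower), and the median log2 difference was 0.03, beside -0.01 for all genes. No gene of the list was called by edgeR in any comparison with TRAC or any interaction. With the replicate block 3 were higher and 1 lower in VM ZNF711 against VM TRAC, when 1.25% of all genes were higher and 1.02% lower: MAML2 (0.63), DTX4 (1.08) and EFNB2 (0.61), and GATA4 (-0.49).

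The counts by role that follow are from this average and have the same background of 34.5% of all genes called. Among the other receptors and ligands, 2 of 5 tested were higher in AM and 1 lower. NOTCH4, an endothelial receptor, was at 22.1 to 38.5 CPM in AM and 6.45 to 18.5 CPM in VM, without overlap (1.27, SE 0.16). The ligand DLL1 was higher in AM by 0.68, and DLK1, an atypical ligand that is abundant in fetal liver, was lower by -1.80. Of 10 nuclear partners of the pathway, 4 were higher in AM and 0 lower: MAML2 (0.60), a Mastermind co-activator, MAML1 (0.21), the acetyltransferase CREBBP (0.33) and the co-repressor SPEN (0.22). RBPJ itself was not called (-0.06, adjusted p = 0.532, edgeR).

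Receptor cleavage genes gave 0 higher and 2 lower of 9, the protease ADAM10 (-0.20) and the gamma-secretase subunit APH1B (-0.48). Of the 5 genes for receptor glycosylation, 1 was higher, the Fringe enzyme MFNG (0.82). Of the 12 genes for endocytosis and turnover, 2 were higher, the ubiquitin ligase NEURL1 (0.89) and DTX3 (0.56), and 4 were lower: NEURL1B (-0.91), MIB2 (-0.43), NUMBL (-0.30) and DTX1 (-1.66). NEURL1B, which promotes ligand endocytosis, did not overlap between conditions, at 34.6 to 58.6 CPM in AM against 73.4 to 116 CPM in VM. Among other targets and HES genes, 2 of 6 tested were higher in AM and 0 lower: EFNB2, an arterial and endocardial ephrin ligand, at 163 to 296 CPM against 69.9 to 146 CPM (1.13, SE 0.10), and GATA4 (0.53).

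Marker lists in the same average were counted beside these, where 16.8% of all genes were called higher and 17.6% lower. Arterial endothelial markers had 4 of 6 higher and 0 lower in AM, mural and smooth muscle markers 2 of 10 higher and 6 lower, fibroblast markers 3 of 7 higher and 0 lower, and epicardial markers 3 of 6 tested higher and 1 lower. Cardiomyocyte markers had 0 of 12 higher and 6 lower, atrial markers 5 of 8 higher and 1 lower, ventricular markers 0 of 6 higher and 6 lower, hepatic endoderm markers 0 of 9 higher and 6 lower, neural markers 3 of 5 tested higher and 0 lower, and pluripotency markers 0 of 3 tested higher and 2 lower. Their part in the Notch differences was not tested.

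**Figure D5:**
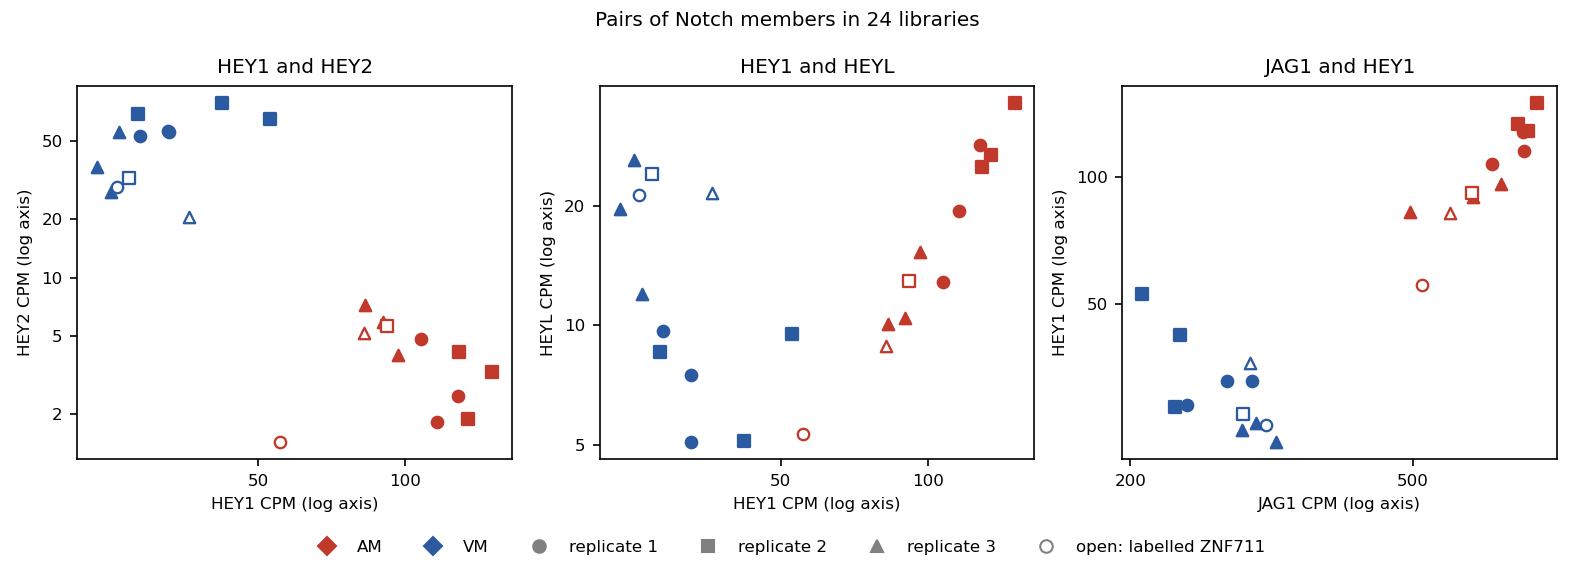
CPM of pairs of members in each library on log axes, AM in red, VM in blue, ZNF711 open, replicates by marker shape. HEY1 and HEY2 place AM and VM in opposite corners, and HEYL follows HEY1 along a line in AM but not in VM.

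How the members varied together was described within each condition, with no test, since libraries share targets, replicate numbers and depth. Across the 12 AM libraries HEYL followed HEY1 (Pearson r 0.97, Spearman rho 0.96, and r 0.96 without the 2 libraries farthest from the median of HEY1). JAG1 and HEY1 gave r 0.90 and rho 0.92 there, with r 0.94 without the 2 farthest. Not all members varied together in AM. JAG1 and HEYL gave r 0.90, but NOTCH3 and HEYL gave -0.15, HES1 and HES4 0.18, and HEY1 and HEY2 -0.08. The VM libraries fall into 2 sets, so they were described within each set of 6: HEY1 and HEYL gave r 0.11 and -0.07, and JAG1 and HEY1 -0.40 and -0.52, in the libraries with high hepatic endoderm markers and in the others. With 6 libraries these values are unstable, and leaving out the 2 farthest moved the first pair to -0.06 and -0.78 and the second to 0.26 and -0.79.

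The genes whose levels were most like those of a member were sought over 24 libraries among 11423 genes by Pearson r of log2 CPM, as a description that includes the difference between AM and VM. JAG1 was most like SLIT2 (0.981), SHISA2 (0.978) and NHSL2 (0.972), and HEY1 was most like NFIB (0.966), SEMA5A (0.955) and KCNG1 (0.953). HEY2 was most like VCAM1 (0.970), ACTN3 (0.969) and COL22A1 (0.968). NOTCH3 was most like PTGIS (0.951), HES4 like IRS2 (0.931), HES1 like EPHX1 (0.889), HEYL like COL9A2 (0.868) and NOTCH2 like MFAP4 (0.858), and the likeness was weaker for NOTCH1 (SEC16A, 0.804) and DLL4 (ADGRD1, 0.769). When each library was set against its group mean, which removes the difference between groups, the nearest genes changed: FBN1 for JAG1 (0.918), VGLL4 for HEY1 (0.862), KCNJ5 for HEY2 (0.860), SHISA2 for HEYL (0.927), MYH9 for NOTCH3 (0.928) and AKR1A1 for HES1 (0.947).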

How the data were processed

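The values used were the deposited gene counts, whole numbers of reads per gene, for 24 libraries. Per the submitters' processing notes, STAR and GRCh38 were used; the counting program, annotation release, strand setting and versions are not given in the sources used here. The labels name both polyA RNA and removal of ribosomal RNA with a KAPA kit, so the RNA fraction is uncertain. All rows named genes, and no column was left unmatched.

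Genes kept by filterByExpr (17724) were tested with edgeR 4.0.16 (quasi-likelihood, robust, TMM scaling, R 4.3.3), with 1 mean per group over all 24 libraries and 16 residual degrees of freedom. Each of 14 comparisons had its own Benjamini-Hochberg adjustment across every gene tested, and a gene was called under 0.05. The standard error is the log2 fold change divided by the root of its F statistic. CPM are counts per 1e6 of the TMM-scaled total (factors 0.905 to 1.08). Lengths and gene coordinates come from GENCODE 29, and promoters were placed by the RefSeq gene starts. Libraries of 1 group differed by more than sampling noise (chi-square per degree of freedom 4.33 to 44.2). The model was tested on simulated counts.

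The 10 members and all lists were chosen with earlier results of these data known. The text names all members, pathway genes called in a comparison, and the 3 genes most like a member. Other genes with values, among them the targeted genes and markers such as NR2F2, IRX4, MYL2, CDH5, ERG, SOX17 and NFATC1, were chosen after their values were seen. Same-numbered libraries were taken as paired only in the counts of pairs and in the replicate block. The reason was that deviations from the group means correlated by 0.125 to 0.786 over 11423 genes in all pairs of groups compared. The main fit had no term for the number, so its p-values leave this pairing out. What the number stands for is not stated. Alternatives were RLE scaling, library size alone, no filter, at least 1 CPM in 3 libraries, fits limited to the compared groups, DESeq2 1.42.0, a block for the replicate number, and dropping single libraries or whole replicate numbers. An average over replicates 1 and 2 of TRAC, LHX2 and ZNF503 was added after seeing the data.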

Additional observations from a re-analysis of the deposited data

Results flagged for a closer look

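JAG1 lay on opposite sides of TRAC in the libraries labelled ZNF711, although neither difference was called by edgeR (-0.31 in AM, adjusted p = 1.0, and 0.28 in VM, adjusted p = 0.587). In AM all 3 of these libraries, at 515, 607 and 564 CPM, were below the AM TRAC libraries, at 667 to 718 CPM, and in VM all 3, at 311, 289 and 295 CPM, were above the VM TRAC libraries, at 208 to 288 CPM. The interaction was -0.59 on the log2 scale (95% interval -1.04 to -0.14) and was not called by edgeR (unadjusted p = 0.0124, adjusted p = 0.607, or 0.260 with the replicate block). The highest VM TRAC library, replicate 3, at 287.6 CPM, was close to the lowest VM ZNF711 library, at 288.7 CPM. Both belong to the 6 VM libraries with high hepatic endoderm markers, in which the median of JAG1 was 298 CPM against 238 CPM in the other 6, and the part of those markers in the difference was not tested.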

How the results depend on the processing

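JAG1, HEY1 and HEY2 kept their direction and their call in every AM against VM comparison under every alternative run, 16 for each target and 34 for the average. The number of members called ranged from 3 to 5 in each of TRAC, LHX2, ZNF503 and ZNF711, from 5 to 7 in the average, and from 0 to 2 in VM ZNF711 against TRAC and in the ZNF711 interaction when libraries were left out, and stayed at 0 in the other comparisons. It was 3 in TRAC with only the groups compared. It was 1 in AM ZNF711 against TRAC and 1 in the ZNF711 interaction with no filter, which is HEYL in both. Without replicate 3 the interaction called HEYL (-2.61) and HES1 (-1.63).

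The replicate block called 1 member, NOTCH3, in VM ZNF711 against TRAC, where the fit without it called 0, and it called 6, 5, 5 and 6 members in AM against VM for TRAC, LHX2, ZNF503 and ZNF711. The calls it added are given beside the results; it changed no other call of a member. It turned the sign of HES1 in TRAC (0.11) and LHX2 (0.032), both near 0.

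Scaling to library size alone turned NOTCH2 (0.039) and HES1 (0.063) in TRAC, HES1 in LHX2 (0.072), NOTCH1 (0.075) and NOTCH2 (0.0096) in ZNF503, and NOTCH1 in the average (0.0041). The average over replicates 1 and 2 of TRAC, LHX2 and ZNF503 called 5 members and turned NOTCH1 (0.16) and HES1 (0.31). Leaving out libraries gave values on both sides of 0 for HES1 in LHX2 (-0.34 to 0.46), TRAC (-0.42 to 0.79) and the average (-0.55 to 0.022), HES4 in LHX2 (-0.80 to 0.19), HEYL in TRAC (-0.052 to 1.28) and the average (-0.17 to 0.96), NOTCH1 in ZNF503 (-0.14 to 0.14) and the average (-0.17 to 0.0697), and NOTCH2 in TRAC (-0.067 to 0.031). The cause was not tested.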
